A study of Mus musculus with 8 samples.

Results

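The 10 genes described here are genes of blood stem cells, many of them shared with endothelium, and were followed across 8 arrays of sorted mouse marrow progenitors. They were Emcn, Robo4, Procr, Tek, Esam, Fgd5, Slamf1, Angpt1, Ctnnal1 and Ly6a, taken by RefSeq symbol, and each was read from its brightest probe. All 10 of 10 were found among the 20883 genes matched on the array, and all 10 were among the 13183 genes tested. Most encode surface proteins, but Angpt1 is secreted and Fgd5 and Ctnnal1 act inside the cell, so the set is a group of stem cell and endothelial genes rather than of surface proteins alone.

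Bone marrow of C57BL/6 mice was given to lethally irradiated wild-type hosts that carry CD45.1, and all 4 kinds of marrow, WT included, carried the tamoxifen-inducible Cre-ERT2. The JAK2V617F/Ezh2Δ/Δ marrow (here the double mutant) came from JAK2V617F;Ezh2flox/flox;Cre-ERT2 mice, the JAK2V617F marrow from JAK2V617F;Cre-ERT2 mice, the Ezh2Δ/Δ marrow from Ezh2flox/flox;Cre-ERT2 mice and the WT marrow from Cre-ERT2 mice. The floxed Ezh2 was deleted 4 weeks after transplantation, and cells were sorted at 2 months. The labels give no ages, and the recipients kept their own wild-type stroma and vessels. Megakaryocyte/erythroid progenitors (MEP) and LSK cells (no lineage markers, with c-Kit and Sca-1, the fraction with the stem cells in it) were hybridized to 1 array for each genotype, from 20 ng of Cy3-labelled RNA. With 1 array a group, a difference between single arrays has no replicate error and no test, and p-values come from fits over arrays that match in cell type or in the other genotype.

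Stem cells and endothelium arise from common ancestors in the embryo and keep a set of receptors in common. In adult marrow, antibodies to the proteins of Procr (the endothelial protein C receptor, EPCR), Esam (an adhesion molecule of tight junctions), Emcn (endomucin, a sialomucin), Robo4 (a roundabout receptor), Tek (the angiopoietin receptor Tie2), Slamf1 (CD150) and Ly6a (Sca-1) are used to enrich stem cells, and Fgd5 and Ctnnal1 (alpha-catulin) reporters mark them. Angpt1 encodes angiopoietin-1, the ligand of Tek. Ezh2 is the histone H3 methyltransferase within the polycomb complex PRC2. JAK2V617F is a mutant cytokine-signalling kinase that stays active and is common in myeloproliferative neoplasms.

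Promoter windows from RefSeq (GRCm38.p6, 250 bases before to 50 after the start) were matched for 7 of the 10 genes, and those of Esam, Angpt1 and Ly6a were not. Shown here, 5′ to 3′ on the gene's strand, are the windows of Emcn (chr3:137340828-137341127, plus strand), Robo4 (chr9:37401722-37402021, plus strand) and Procr (chr2:155750967-155751266, plus strand), because these genes differed most between the LSK arrays. Capitals mark the sequence AGGAAG or its reverse complement CTTCCT, used here for ETS sites, since ETS factors bind promoters of endothelial and blood genes.
Emcn promoter: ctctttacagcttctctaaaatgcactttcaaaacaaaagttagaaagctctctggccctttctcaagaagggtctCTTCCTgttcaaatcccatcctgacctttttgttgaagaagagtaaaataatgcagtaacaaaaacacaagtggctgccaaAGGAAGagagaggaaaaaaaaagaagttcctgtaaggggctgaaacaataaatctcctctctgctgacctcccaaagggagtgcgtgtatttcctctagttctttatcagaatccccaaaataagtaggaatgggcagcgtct
Robo4 promoter: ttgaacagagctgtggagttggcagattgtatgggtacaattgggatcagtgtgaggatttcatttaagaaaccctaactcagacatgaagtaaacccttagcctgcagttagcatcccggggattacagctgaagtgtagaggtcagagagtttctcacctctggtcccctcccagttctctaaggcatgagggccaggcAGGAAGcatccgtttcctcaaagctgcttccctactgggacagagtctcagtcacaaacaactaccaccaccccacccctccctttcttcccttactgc
Procr promoter: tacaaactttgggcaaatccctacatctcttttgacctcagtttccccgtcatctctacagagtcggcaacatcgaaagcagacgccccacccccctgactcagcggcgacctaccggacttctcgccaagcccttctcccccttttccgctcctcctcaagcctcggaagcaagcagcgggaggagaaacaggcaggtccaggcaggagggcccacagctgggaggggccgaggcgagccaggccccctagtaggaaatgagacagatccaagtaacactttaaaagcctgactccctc
This ETS sequence was searched on both strands, and other forms of ETS or GATA sites were not searched. It stood in 4 of the 7 windows (Emcn and Slamf1 with 2 copies each, Robo4 and Fgd5 with 1 each), and in 35.4% of all 32851 promoter windows. The sequence AGATAA, used here for GATA sites, was in 1 of 7 windows, that of Tek, and in 11.2% of all windows. The STAT motif TTCNNNGAA was in 0 of 7 and in 8.30% of all windows. These are matches of letters in a short window and were not tested as sites.

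Levels are log2 signals minus that array's own 75th percentile, and they compare arrays for a gene, not one gene with another. Between 39.8% and 48.8% of probes were well above background, and the JAK2V617F LSK array (43.3%) was the lowest of the LSK arrays. The Ezh2 probe was at 3.36 to 4.04 with Ezh2 deleted and reached 4.23 without the deletion. Which exon it reads is not given, so it checks nothing about the deletion. All 4 arrays with Ezh2 deleted had Xist at 1.57 to 2.99, and the other 4 had it no higher than -3.07. Eif2s3y, on the Y chromosome, stood at 2.53 to 3.55 without the deletion and was dim (not well above background) on each array with it. Marrow sex and Ezh2 status therefore cannot be told apart in any Ezh2 comparison below. All 8 arrays share 1 slide, with cell type in rows and genotype in columns, so the position on the slide cannot be told apart from the groups either.

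The JAK2V617F LSK array was low for several of these genes, and the double mutant LSK array lay between it and the arrays without JAK2V617F for most of them. Compared with WT LSK, 5 of the 10 genes were at least 2-fold lower in JAK2V617F LSK (Robo4, Emcn, Procr, Angpt1 and Esam), against 4.32% of all genes tested, and 0 were at least 2-fold higher, against 3.61%. In the double mutant compared with WT, 2 genes were at least 2-fold lower (Emcn and Angpt1; 2.08% of all genes) and 0 higher (5.52%). Counting only orders that hold wherever a dim value lies below the floor of its array (its lowest level well above background), the JAK2V617F array was the lowest of the 4 LSK arrays for 6 genes, a pattern that 18.6% of all genes had. For 5 of them (Emcn, Robo4, Procr, Tek and Angpt1) the double mutant stood second, between JAK2V617F and both arrays without the mutation, as it did for 10.4% of all genes. The median difference of the 10 genes was -1.18 for JAK2V617F over WT LSK (-0.92 with dim values raised to the floor of the array), beside 0.10 over all genes tested. For the double mutant over WT it was -0.43 (-0.37 with dim values raised), beside -0.00. Both comparisons share the WT array.

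**Figure D1:**
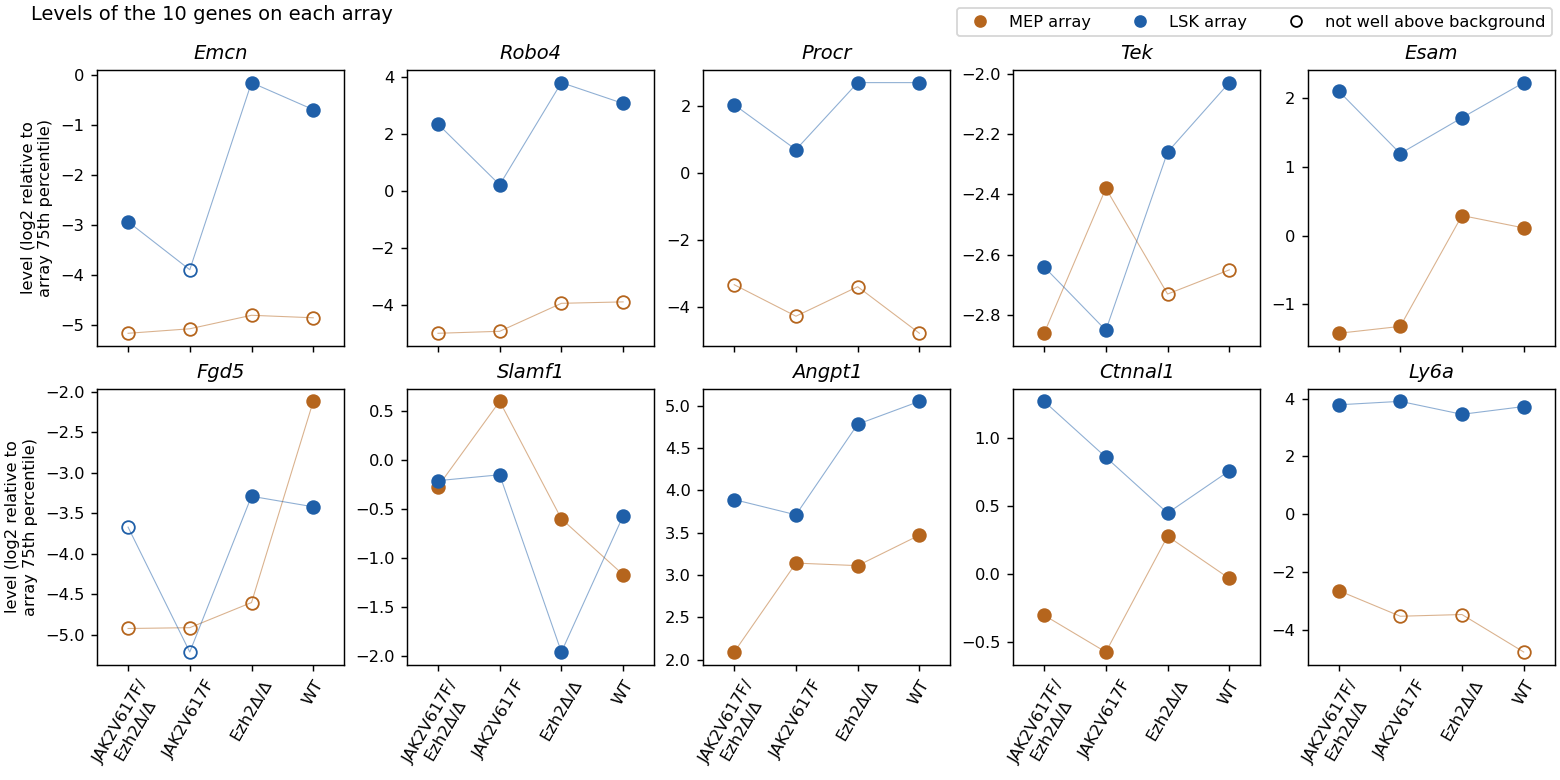
Level of each gene (log2 signal, scaled to each array's 75th percentile) on each of the 8 arrays, with 1 point an array and thin lines joining arrays of a cell type. Open points were not well above background, and Emcn, Robo4 and Procr are open on all 4 MEP arrays.

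Robo4, a receptor of vascular and stem cell surfaces that takes part in the lodging of stem cells in marrow, had a level of 2.34 in double mutant LSK, 0.21 in JAK2V617F LSK, 3.79 in Ezh2Δ/Δ LSK and 3.06 in WT LSK. The JAK2V617F array thus stood well below the other 3. The difference was 7.19-fold lower for JAK2V617F over WT and 1.64-fold lower for the double mutant over WT. Robo4 was 4.39-fold higher in the double mutant than in JAK2V617F alone.

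Procr, whose receptor binds protein C and marks the most primitive stem cells, was at 2.05 in double mutant LSK, 0.71 in JAK2V617F LSK, 2.71 in Ezh2Δ/Δ LSK and 2.71 in WT LSK. Ezh2Δ/Δ and WT had the same value to 2 decimals, and both JAK2V617F-carrying arrays lay below them. Procr was 4.01-fold lower in JAK2V617F than in WT and 2.54-fold higher in the double mutant than in JAK2V617F. Robo4 and Procr were the 2 genes at least 2-fold higher in the double mutant than in JAK2V617F, a step that 4.29% of all genes took, and 0 were lower (1.49%). The median of that difference was 0.66 over the 10 genes as measured and 0.31 with dim values raised, beside -0.10 and -0.11 over all genes tested. This difference and that of JAK2V617F from WT share the JAK2V617F array, so they are not separate observations.

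Emcn, the mucin that covers capillary and venous endothelium and early stem cells, was at -2.94 in double mutant LSK, -3.90 in JAK2V617F LSK, -0.16 in Ezh2Δ/Δ LSK and -0.70 in WT LSK. The JAK2V617F array was not well above background, so its difference from WT is a bound of at least 6.28-fold lower. In the double mutant Emcn was 4.71-fold lower than in WT and 6.85-fold lower than in Ezh2Δ/Δ LSK. For a bound, the dim value was raised to the lowest level well above background on its array.

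Tek and its ligand Angpt1 form a signalling pair that holds stem cells in quiescence. Angpt1 had levels of 3.89 in double mutant LSK, 3.71 in JAK2V617F LSK, 4.78 in Ezh2Δ/Δ LSK and 5.05 in WT LSK. Both arrays with JAK2V617F lay below both without it, 2.23-fold below WT in the double mutant and 2.54-fold below WT with JAK2V617F alone. Tek was at -2.64 in double mutant LSK, -2.85 in JAK2V617F LSK, -2.26 in Ezh2Δ/Δ LSK and -2.03 in WT LSK. The order was the same, with differences from WT of 1.53-fold and 1.76-fold, both under 2-fold.

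Esam, the junctional adhesion molecule, was at 2.10 in double mutant LSK, 1.19 in JAK2V617F LSK, 1.71 in Ezh2Δ/Δ LSK and 2.22 in WT LSK. Only JAK2V617F differed from WT by 2-fold (2.04-fold lower), and the double mutant was 1.09-fold below WT. Fgd5, an exchange factor for Cdc42, was well above background in LSK of Ezh2Δ/Δ (-3.29) and WT (-3.42) and not in the double mutant (-3.67) or JAK2V617F (-5.21). The WT level is no higher than the lowest level well above background on the JAK2V617F array, so no fold is given.

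The 3 remaining genes were not lower with JAK2V617F in LSK. Slamf1, a homotypic receptor of the signalling lymphocyte activation family, was at -0.21 in double mutant LSK, -0.15 in JAK2V617F LSK, -1.96 in Ezh2Δ/Δ LSK and -0.57 in WT LSK. The Ezh2Δ/Δ array stood apart, 2.62-fold below WT, the 1 gene of 10 at least 2-fold lower in that comparison (1.58% of all genes), while 0 were higher (3.83%). Against Ezh2Δ/Δ LSK, the double mutant had Slamf1 3.38-fold higher, the 1 gene at least 2-fold higher (3.26%), and Emcn and Robo4 lower (2.71-fold for Robo4; 2.56% of all genes). Ctnnal1, a relative of the alpha-catenins, was at 1.27 in double mutant LSK, 0.86 in JAK2V617F LSK, 0.45 in Ezh2Δ/Δ LSK and 0.76 in WT LSK, a range of under 2-fold. Its other probe was at -0.92, -1.18, -1.63 and -1.72 on the same arrays, also highest in the double mutant. Ly6a was at 3.79 in double mutant LSK, 3.91 in JAK2V617F LSK, 3.46 in Ezh2Δ/Δ LSK and 3.73 in WT LSK. Sca-1 is part of the LSK gate, so cells low in it were not sorted, and the near-identical Ly6 paralogs may share its probe.

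**Figure D2:**
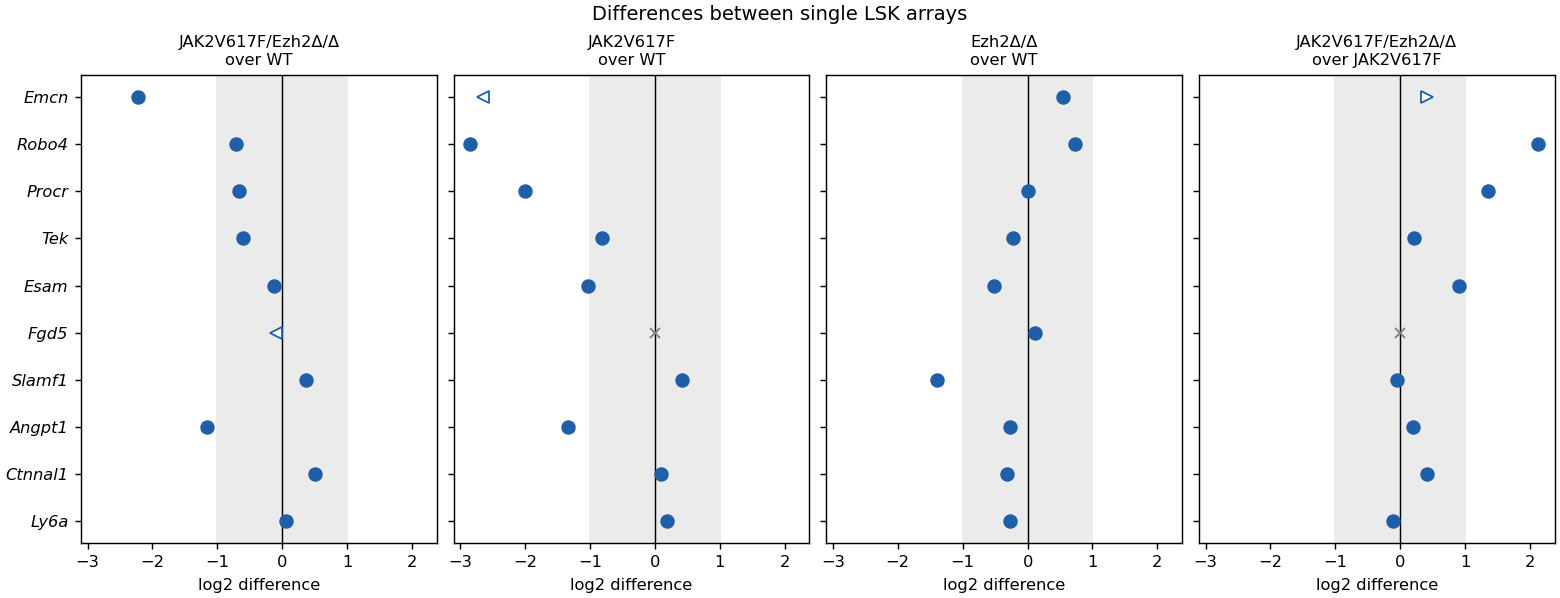
Log2 difference between single LSK arrays for each gene, with the shaded band marking less than 2-fold. Open triangles are bounds, in the direction of the triangle, where 1 array was not well above background, and a cross marks no fold given. Robo4, Procr and Emcn lie farthest left for JAK2V617F over WT, and Robo4 and Procr farthest right for the double mutant over JAK2V617F.

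When the JAK2V617F effect in LSK was fitted over both pairs of LSK arrays (limma, n = 2 against 2, with the spread pooled with the MEP arrays), 1 of the 10 genes passed an adjusted p of 0.05. That gene was Emcn, and 0.0910% of all genes were called lower. Its log2 fold change was -2.99 (SE 0.22, adjusted p = 0.0288), with -3.42 ± 0.68 on the JAK2V617F-carrying arrays and -0.43 ± 0.38 on the others (SD, n = 2 each). One of the 2 JAK2V617F-carrying LSK arrays measured it, and the 4 MEP arrays that set part of its spread are all at background. Raising every value below a common floor of -2.66 to that floor gave -2.23 (adjusted p = 0.170). This also raised the measured double mutant LSK value of -2.94. The adjusted p was 0.140 with no filter on dim probes and 0.132 without any 1 of the MEP arrays, so the call depends on these choices.

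Robo4 had a fitted change of -2.14 (SE 0.36, adjusted p = 0.104), lower in both pairs, and was not called. Like Emcn, Robo4 and Procr were dim on the 4 MEP arrays that set part of their SE and p. It passed with normexp background correction (-2.04, adjusted p = 0.0175), and with a trended variance prior (adjusted p = 0.0379). Leaving out 1 LSK array leaves 1 LSK pair, whose spread is then a value common to all genes, with each lone array assumed to vary like the rest. On those terms Robo4 was at -2.85 (adjusted p = 0.000950) in the pair of JAK2V617F and WT, and at -1.44 (adjusted p = 0.843) in the pair of double mutant and Ezh2Δ/Δ. Procr was at -1.33 (SE 0.36, adjusted p = 0.207) and Angpt1 at -1.11 (SE 0.27, adjusted p = 0.179), each lower in both pairs. Angpt1 passed with normexp (-1.19, adjusted p = 0.0455). Procr was at -2.00 in the pair of JAK2V617F and WT and at -0.66 in the pair of double mutant and Ezh2Δ/Δ, and passed in neither.

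The other fitted values were -1.09 for Fgd5 (dim on both JAK2V617F-carrying arrays, and -0.08 with dim values raised), -0.60 for Tek, -0.32 for Esam, 0.26 for Ly6a, 0.46 for Ctnnal1 and 1.09 for Slamf1, with adjusted p between 0.279 and 0.679. Esam changes sign to 0.39 without the JAK2V617F or the WT LSK array, and Fgd5 to 0.07 with normexp. At an unadjusted p under 0.05 the count was 5 lower (Emcn, Robo4, Procr, Tek and Angpt1), beside 7.40% of all genes, and 0 higher, beside 10.2%. The median over the 10 genes was -0.84, and over all genes tested 0.08.

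**Figure D3:**
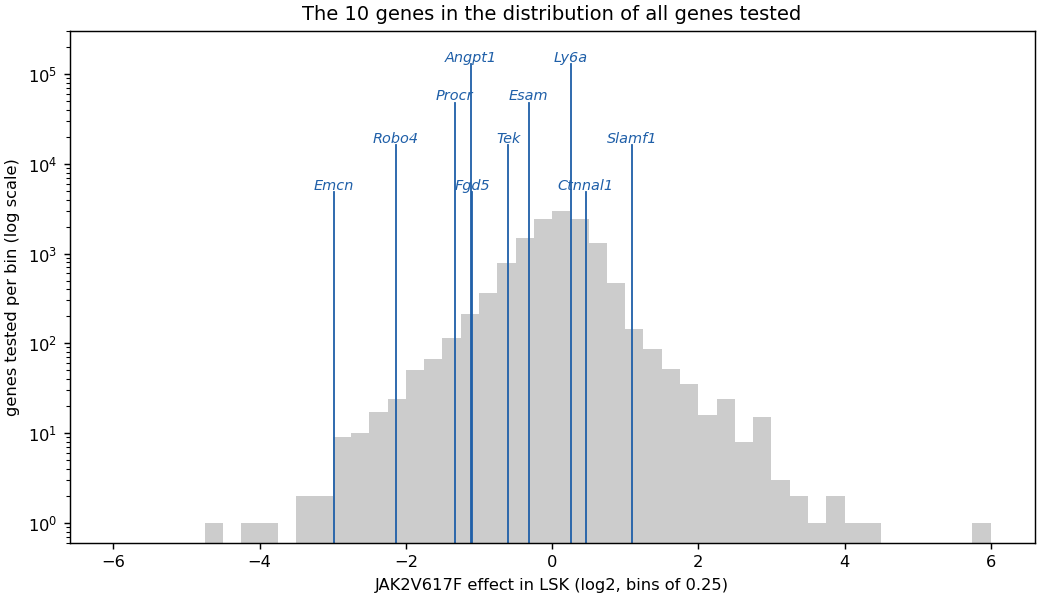
Fitted JAK2V617F effect in LSK (log2) of all 13183 genes tested as a histogram with a log count axis, with a line at the value of each of the 10 genes. Emcn at -2.99 and Robo4 at -2.14 lie in the left tail, and Slamf1 at 1.09 lies to the right.

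Averaged over both cell types, the JAK2V617F effect called 0 of the 10 genes, where 0.326% of all genes were called either way (limma, n = 4 against 4). At an unadjusted p under 0.05 there were 5 lower (5.57% of all genes) and 1 higher (5.29%). The lower ones were Emcn at -1.64, Robo4 at -1.59, Fgd5 at -1.32, Esam at -0.94 and Angpt1 at -0.89, with adjusted p between 0.222 and 0.445. Fgd5 was dim on all 4 JAK2V617F-carrying arrays, and with dim values raised its difference was -0.33, so its size is not measured. Emcn and Robo4 were dim on all 4 MEP arrays, so the MEP part of their averages is not measured. With dim values raised they were at -1.49 and -1.21. Angpt1 passed when the test was limited to genes measured on each of the 8 arrays (adjusted p = 0.0467). Slamf1 was the higher one, at 1.07 (SE 0.30, adjusted p = 0.284), higher in 4 of 4 pairs. Its 4 JAK2V617F-carrying arrays, from -0.27 to 0.60, did not overlap the 4 others, from -1.96 to -0.57, as was so in this direction for 0.956% of all genes.

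The Ezh2 deletion effect called 0 of the 10 genes, beside 0.705% of all genes either way, and 1 of them, Procr, had an unadjusted p under 0.05 and was higher (7.78% of all genes), with 0 lower (10.2%). Procr was at 0.92 (SE 0.38, adjusted p = 0.271, n = 4 against 4), but it was dim on all MEP arrays and at 0.33 with dim values raised. The other 9 genes lay between -0.44 (Slamf1) and 0.68 (Robo4). Within LSK, 0 were called (0.129% of all genes), and 2 had an unadjusted p under 0.05, both higher (6.29%; lower 2.96%). These were Robo4 at 1.43 (SE 0.36, adjusted p = 0.262) and Emcn at 0.75 (SE 0.22, adjusted p = 0.346), each higher in both pairs. Robo4 was at 2.13 without the Ezh2Δ/Δ or the WT LSK array, which leaves the double mutant and JAK2V617F as the only LSK pair.

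Whether the Ezh2 effect depended on JAK2V617F was asked by the interaction of both genotypes, which called 0 of the 10 genes and 0.0% of all genes (441 genes, 3.35%, at an unadjusted p under 0.05, 0 of them among the 10). Fgd5 came nearest at 1.95 (SE 0.88, adjusted p = 0.970), and Robo4 was at 0.69 (SE 0.81) and Procr at 0.45 (SE 0.78). This term averages LSK with MEP, where Robo4 and Procr were dim on all 4 arrays, and with 1 array a group the interaction within LSK alone was not tested.

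Most of these genes were lower in MEP than in LSK. In MEP, 7 of the 10 fell relative to LSK (20.1% of all genes fell) and 0 rose (19.8%), in the fit over 4 against 4 arrays. The 7 include Ly6a, which encodes the Sca-1 of the LSK gate. Emcn, Robo4 and Procr were well above background on LSK arrays alone, so they entered the test only through LSK. The count was thus in part set by the gate and the filter. Robo4 was at least 36.5-fold lower in MEP (adjusted p = 1.7e-05), with -4.43 ± 0.60 in MEP and 2.35 ± 1.54 in LSK (SD, n = 4 each), and was not well above background on any MEP array. Procr was at least 29.6-fold lower (adjusted p = 2.3e-05), at -3.93 ± 0.71 in MEP and 2.05 ± 0.94 in LSK. In 6 of the 7 the 4 MEP arrays lay below the 4 LSK arrays, as for 15.1% of all genes. In Emcn the order is not measured, since 1 LSK array was dim too. Emcn, also dim on all MEP arrays, was at least 1.88-fold lower (adjusted p = 0.00295), and with a common floor its fold change of -1.12 did not pass (adjusted p = 0.140).

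Esam was measured on all 8 arrays and was 5.24-fold lower in MEP, at -0.59 ± 0.91 in MEP and 1.80 ± 0.46 in LSK (adjusted p = 0.000871). Angpt1 was 2.65-fold lower, at 2.95 ± 0.60 in MEP and 4.36 ± 0.66 in LSK (adjusted p = 0.00210). Ctnnal1 was 1.99-fold lower (adjusted p = 0.0163), at -0.16 ± 0.36 in MEP and 0.84 ± 0.34 in LSK. Its call is lost with the mean of both probes (-0.67, adjusted p = 0.0504), without the double mutant LSK array (adjusted p = 0.0508) and without the double mutant MEP array (adjusted p = 0.0564). On its other probe the cell types overlapped, from -2.07 to -1.36 in MEP and from -1.72 to -0.92 in LSK. Ly6a fell by 7.33 on the log2 scale, or 88.6-fold with dim values raised, with 1 of 4 MEP arrays above background. Sca-1 was used to sort LSK, so this difference is no finding. Tek (-0.21, adjusted p = 0.437), Fgd5 (-0.24, adjusted p = 0.747) and Slamf1 (0.36, adjusted p = 0.363) were not called, and Fgd5 in MEP was measured on the WT array alone, at -2.12.

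**Figure D4:**
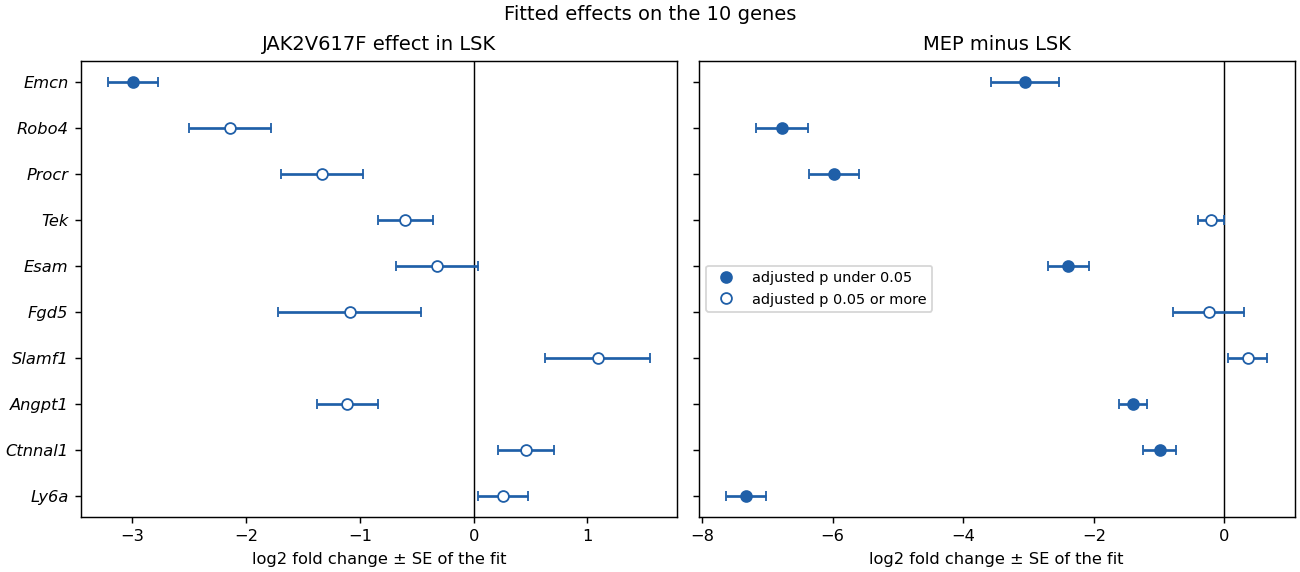
Fitted JAK2V617F effect in LSK (n = 2 against 2 arrays) and MEP minus LSK difference (n = 4 against 4), as log2 fold changes with the standard error of the fit. Filled points have an adjusted p under 0.05: 1 gene for JAK2V617F in LSK and 7 for MEP minus LSK, with Ly6a of the LSK gate among the 7.

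Among single MEP arrays, Esam, Angpt1 and Slamf1 were the genes of the 10 that reached 2-fold in any comparison. Esam in MEP was at -1.42 in the double mutant, -1.32 with JAK2V617F, 0.29 in Ezh2Δ/Δ and 0.11 in WT, so that both JAK2V617F-carrying arrays lay below both others. The JAK2V617F effect in MEP called 0 of the 10 genes (0.159% of all genes), with 3 lower (3.40%) and 1 higher (4.42%) at an unadjusted p under 0.05. The lower ones were Esam, Angpt1 (-0.67) and Robo4 (-1.04, dim on all MEP arrays), and the higher one was Ly6a (1.03, dim on 3 of 4). For Esam it was -1.57 (SE 0.36, adjusted p = 0.240). It passed without any 1 of the LSK arrays (adjusted p = 0.0252) and among genes above background on all 8 arrays (adjusted p = 0.0490). The fold change was -1.57 in each of these fits, and without 1 LSK array the spread is a value common to all genes. Angpt1 in MEP was at 2.09 in the double mutant, 3.14 with JAK2V617F, 3.11 in Ezh2Δ/Δ and 3.47 in WT, lowest in the double mutant. Slamf1 in MEP was at -0.27 in the double mutant, 0.60 with JAK2V617F, -0.60 in Ezh2Δ/Δ and -1.17 in WT, highest with JAK2V617F.

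At least 2-fold in MEP, the double mutant over WT had 2 genes lower, Esam and Angpt1 (5.28% of all genes), and 0 higher (5.04%). JAK2V617F over WT had Esam lower (2.10%) and Slamf1 higher (3.42-fold; 2.37%), and Ezh2Δ/Δ over WT had 0 lower (1.37%) and 0 higher (2.84%). The double mutant was lower than JAK2V617F for Angpt1 (6.77%) and higher for 0 genes (4.54%). It was lower than Ezh2Δ/Δ for Angpt1 and Esam (2.80%) and higher for 0 genes (2.50%). The difference of the JAK2V617F effect between LSK and MEP was called for 0 of the 10 genes (0.0% of all genes). At an unadjusted p under 0.05 it counted 2 lower in LSK (4.63%), Emcn at -2.69 (adjusted p = 0.186) and Procr at -1.62 (adjusted p = 0.394), and 1 higher (6.83%), Ctnnal1 at 1.02 (adjusted p = 0.416). Emcn was at -2.90 without the Ezh2Δ/Δ or the double mutant LSK array, which leaves JAK2V617F and WT as the only LSK pair. Emcn and Procr were dim on all 4 MEP arrays, so the JAK2V617F effect in MEP that these differences subtract is not measured. The same difference of the Ezh2 deletion effect called 0 genes (0.00759% of all genes), with 1 higher in LSK (2.80%), Robo4 at 1.49 (adjusted p = 0.820), and 1 lower (2.49%), Ly6a at -1.29 (adjusted p = 0.549), at an unadjusted p under 0.05. Robo4 was dim on all 4 MEP arrays and Ly6a on 3, with the same limit.

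The partners of these genes, listed by pathway or family with earlier results known, were nearly all without a call for JAK2V617F in LSK. Of the angiopoietin and Tie partners, Angpt2, Angpt4 and Ptprb were above background on 0 arrays and 2 were tested. Tie1, the co-receptor of Tek, was at -0.43 in double mutant LSK, 0.03 in JAK2V617F LSK, 0.01 in Ezh2Δ/Δ LSK and 1.04 in WT LSK. Its JAK2V617F effect in LSK was -0.72 (adjusted p = 0.291), and Dok2, an adaptor of Tek, was at -0.07. Tie1 fell in MEP relative to LSK (-2.53, adjusted p = 0.00154), unlike Tek, whose call was not made, and a difference between both genes was not tested.

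Of 5 tested Slit and Robo partners, 0 were called for JAK2V617F in LSK. Srgap3, an intracellular partner of Robo receptors, fell with JAK2V617F over both cell types (-1.43, adjusted p = 0.0438). Its LSK levels were -0.65 in the double mutant, -1.29 with JAK2V617F, 0.06 in Ezh2Δ/Δ and 0.28 in WT. Robo1, Robo2 and Slit3 were above background on 0 arrays and Slit2 on 1. Of 5 protein C partners, 0 were called with either genotype. Thbd, the thrombomodulin that presents protein C to its activating enzyme, was at 1.28 in double mutant LSK, 0.73 in JAK2V617F LSK, 2.90 in Ezh2Δ/Δ LSK and 1.70 in WT LSK, with a JAK2V617F effect in LSK of -1.29 (adjusted p = 0.207). Thbd fell in MEP (-2.25, adjusted p = 0.000274), as did the thrombin receptor F2rl3 and tissue factor F3, 3 of 5 in all, beside 20.1% of all genes. F3 was dim on all 4 MEP arrays and entered the test only through LSK, so the filter in part set this count.

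Of the junctional adhesion family, Jam3 rose with Ezh2 deletion (2.82, adjusted p = 0.0141, both cell types together). It was at 0.52 in double mutant LSK, -2.73 in JAK2V617F LSK, 0.89 in Ezh2Δ/Δ LSK and -0.75 in WT LSK, and its JAK2V617F effect in LSK was -1.17 (adjusted p = 0.246). F11r, the platelet and stem cell adhesion molecule JAM-A, was at -0.63 for that effect (adjusted p = 0.384). Of 4 sialomucins tested beside Emcn, Podxl (podocalyxin) was called higher with JAK2V617F in LSK, the opposite direction to Emcn. It was at -0.67 in double mutant LSK and -1.11 in JAK2V617F LSK, and at -4.04 in Ezh2Δ/Δ LSK and -6.03 in WT LSK, both not well above background, so it was at least 8.46-fold higher (adjusted p = 0.0451). The call was lost with a common floor (1.77, adjusted p = 0.170), with no filter (adjusted p = 0.150) and without any 1 MEP array (adjusted p = 0.132). Cd34 was at -0.29, Cd164 at -0.05 and Spn at -0.04, and none of these 3 passed (adjusted p from 0.571 to 0.954).

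Of 8 SLAM family members, 0 were called with either genotype. Cd48, which is low on stem cells and high on their progeny, was at 6.07 in double mutant LSK, 6.07 in JAK2V617F LSK, 5.30 in Ezh2Δ/Δ LSK and 5.33 in WT LSK (JAK2V617F effect in LSK 0.76, adjusted p = 0.207). Of 8 Ly6 family members, Ly6d, a marker of lymphoid progenitors, rose with Ezh2 deletion (2.99, adjusted p = 0.00758), and 0 were called for JAK2V617F in LSK. Of 5 Fgd relatives and 2 alpha-catenin relatives, 0 were called for either genotype. Robo3 and Msantd2, which lie between Robo4 and Esam on chromosome 9, had JAK2V617F effects in LSK of 0.07 and -0.30, so of these 4 neighbours Robo4 had the lowest value.

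Other genes of stem cells, listed beside the 10, mostly had lower values on the JAK2V617F-carrying LSK arrays. Of 20 such genes 17 had a negative JAK2V617F effect in LSK and 3 a positive one, beside 42.4% negative over all genes, 0 were called, and their median was -0.78. Hlf, a transcription factor of stem cells, was at 1.96 in double mutant LSK, 0.99 in JAK2V617F LSK, 3.59 in Ezh2Δ/Δ LSK and 3.97 in WT LSK. Its order over the arrays was that of Tek and Angpt1, with an effect of -2.30 (SE 0.35, adjusted p = 0.0954). In the other direction stood Nupr1, a stress-response gene, at 2.51 (adjusted p = 0.0804), and it rose with JAK2V617F over both cell types (2.30, adjusted p = 0.0157).

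Markers of other cells also differed between these arrays. Beside the sign counts below, 42.4% of all genes tested had a negative JAK2V617F effect in LSK. Of 7 granulocyte markers, 7 had a positive JAK2V617F effect in LSK (median 2.75, 0 called), and their summed signal relative to the 75th percentile was 669 in double mutant LSK, 1835 in JAK2V617F LSK, 385 in Ezh2Δ/Δ LSK and 576 in WT LSK. Mpo made up 86.6% to 96.7% of each sum, and the median levels of the 7 were 3.92 in double mutant LSK, 3.70 in JAK2V617F LSK, 2.36 in Ezh2Δ/Δ LSK and 0.29 in WT LSK. All 7 were well above background in LSK but for Ngp and Ltf in WT. Of 8 erythroid markers 6 were positive (median 1.02), and their sum was 269 in double mutant LSK, 83.5 in JAK2V617F LSK, 70.4 in Ezh2Δ/Δ LSK and 40.1 in WT LSK. Of 6 megakaryocyte markers tested 6 were positive (median 0.77, 0 called). With Gp6, which was dim on all 4, the sum was 75.9, 81.5, 45.1 and 49.5 in the same order. Pf4 had the highest level on each, at 5.87, 6.02, 5.14 and 5.09, and the median levels were 0.03, 0.24, -1.23 and -0.13. Of 6 B cell markers, 3 were well above background in double mutant LSK, 1 in JAK2V617F LSK, 4 in Ezh2Δ/Δ LSK and 1 in WT LSK. Their sum was 18.2 in double mutant LSK, 20.9 in JAK2V617F LSK, 35.3 in Ezh2Δ/Δ LSK and 15.8 in WT LSK. Cd79b was at 4.08, 4.37, 4.10 and 3.97 in the same order, and in JAK2V617F and WT LSK it was the only 1 well above background. Vpreb3, a gene of B cell precursors, was at 0.08 in double mutant LSK and 4.10 in Ezh2Δ/Δ LSK and dim in JAK2V617F and WT LSK. It was called higher with Ezh2 deletion (adjusted p = 0.0139). Of the genes of the LSK gate, Kit had a JAK2V617F effect in LSK of -0.88 (adjusted p = 0.251) and Ly6a of 0.26. Of other genes listed with them, Flt3 was at -1.23 (adjusted p = 0.193), Sox4 at -0.67, Cd34 at -0.29 and Cd48 at 0.76. None of these was called. The part of these shifts in the lower levels of Robo4, Procr, Emcn and Angpt1 was not tested. Fewer stem cells within the LSK fraction and less RNA of these genes per cell cannot be told apart in sorted bulk cells.

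Endothelial markers were checked because vessels share many of the 10 genes. Of the 17 markers, Cdh5, Lyve1, Sox17, Sox18 and Mmrn2 were not well above background on any of the 8 arrays. Cldn5 was well above it in Ezh2Δ/Δ LSK alone, and Flt4 and Stab2 in JAK2V617F MEP alone. Flt1 was so in WT and JAK2V617F LSK, Stab1 on 4 arrays and Ramp2 on all 4 LSK arrays. Whether endothelial cells were among the sorted cells was not tested. In LSK, 8 or 9 of 17 markers were well above background on each array. Egfl7, Kdr, Eng, Plvap, Pecam1, Vwf and Ramp2 were so on all 4. The summed signal of the 17 was 250 in double mutant LSK, 170 in JAK2V617F LSK, 254 in Ezh2Δ/Δ LSK and 207 in WT LSK. Egfl7 alone made up 75.2% to 88.2% of each sum, and by median level the order was another (-5.37 in double mutant LSK, -2.87 in JAK2V617F LSK, -3.44 in Ezh2Δ/Δ LSK and -3.91 in WT LSK). The median JAK2V617F effect in LSK of the 9 tested was -0.07, and Ramp2 rose with Ezh2 deletion (1.74, adjusted p = 0.0277).

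**Figure D5:**
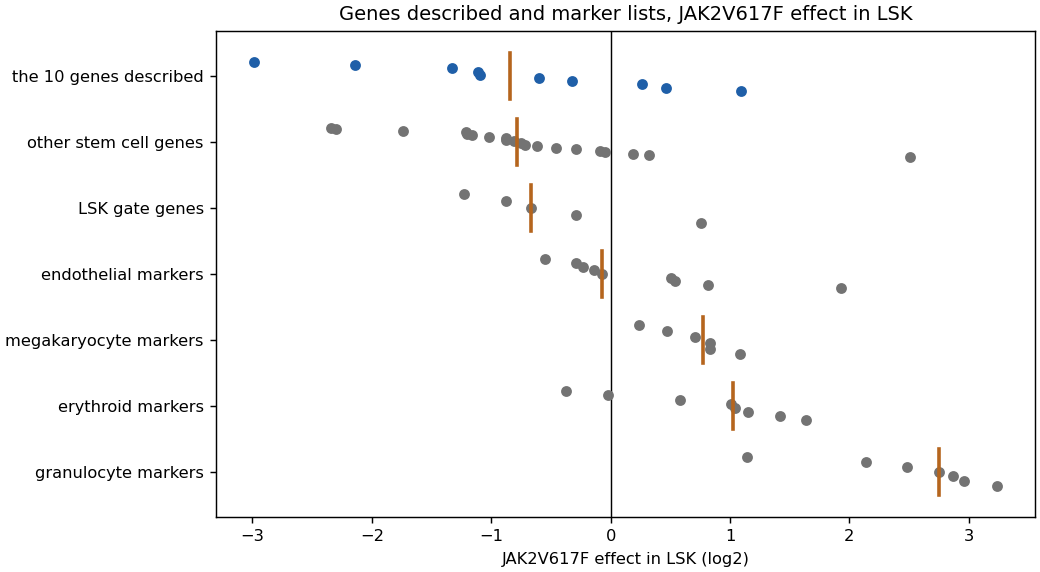
Fitted JAK2V617F effect in LSK (log2) of the 10 genes and of tested genes in the other stem cell, gate and cell type marker lists, with the 10 genes left out of the other lists. Each point is a gene and each bar a list median: the granulocyte markers lie to the right at a median of 2.75, and the endothelial markers stand at -0.07.

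The genes most like the set were found by Pearson's r with the mean centred profile of the 8 genes measured on all 4 LSK arrays, over 8 arrays and 13173 other genes. Over all arrays the closest were Scgb3a1 (0.997) and Sytl1, Snx24, Lsp1 and Gimap8 (0.996 each), where the gap between the cell types sets the value. With the mean of each cell type subtracted they included Slc25a53 (0.97), Tspyl4 and Fah (0.96 each) and N4bp1 (0.95). The profile itself was 1.63 in double mutant LSK, 1.00 in JAK2V617F LSK, 1.64 in Ezh2Δ/Δ LSK and 1.92 in WT LSK, and between -1.66 and -1.25 in MEP. These likenesses describe 8 arrays that share 1 slide.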

How the data were processed

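RNA of 8 sorted fractions was hybridized to 1 Agilent one-colour mouse array each, with 1 group an array and 1 replicate in the labels. Spot intensity in the deposited scanner files is background-subtracted and not normalized between arrays; Agilent Feature Extraction 10.7.1.1 made it, per the file headers. The authors also deposited a table whose values are a linear ratio, equal to the processed signal over 1 factor an array. The number of arrays limits the precision.

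Signals of a probe's spots were averaged, log2-transformed and scaled to each array's 75th percentile. Of 55681 probes 49.4% matched a RefSeq gene (GRCm38.p6). The brightest probe stood for a gene, and genes well above background on at least 2 of 8 arrays were tested. The fits used limma 3.58.1 (R 4.3.3), checked on simulated data, with Benjamini-Hochberg adjusted p over 13183 genes and calls under 0.05. An additive fit gave effects over 4 arrays against 4, a nested fit those within a cell type, and a product term the interaction. Single arrays were compared at 2-fold with no test. Other settings were normexp (offset 50), quantile normalization, the series table, other filters and floors, the mean over probes, non-uniform spots kept, a trended prior, other folds and leaving out each array. Nothing says that arrays came from separate animals.

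The 10 genes and the gene lists were chosen with earlier results of these data known. All 10 are named. From each list, genes called in an additive effect and up to 3 others of high LSK level could be named, and not all are. Srgap3, Thbd, Podxl, Hlf, Nupr1, Vpreb3, Ramp2, Robo3 and Msantd2 were described in detail after their values were seen. Some genes of the lists are not reported here.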

Additional observations from a re-analysis of the deposited data

How the results depend on the processing

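No paired analysis was possible because each group has 1 array and every label carries replicate 1, so no number ties arrays to a shared animal. The pairs named above match arrays by genotype and cell type. Of 622 values of single genes under other settings, 589 kept direction and side of the threshold. The fold change of Fgd5 in MEP minus LSK (-0.24) was 0.17 with normexp and 0.14 with a common floor, and ran between -0.87 and 0.27 without 1 array (0.26 without the double mutant LSK array). Its JAK2V617F effect in LSK was 0.07 with normexp. With the common floor of -2.66, which lies above the level of Fgd5 on each LSK array, it was 0.00 by construction. The JAK2V617F effect of Esam in LSK ran between -1.03 and 0.39 without 1 array, with 0.39 without the JAK2V617F or the WT LSK array.

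Of the 10 genes, JAK2V617F in LSK called 1 lower. It called 3 with normexp, 2 with a trended prior, and 0 with no filter, with a common floor or among genes above background on all 8 arrays, where Emcn is not tested. Leaving out 1 array gave 0 to 2. Among genes above background on all 8 arrays only 4 of the 10 were tested. MEP minus LSK called 3 of these 4, in place of 7 of 10, and the JAK2V617F effect 1 in place of 0. Leaving out 1 array gave 0 to 1 for Ezh2 deletion in LSK and for both differences between LSK and MEP. No other setting moved these counts by over 1.5 times; the other causes were not tested.

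Between single LSK arrays, the 5 genes lower with JAK2V617F than in WT became 3 at 3-fold and 2 among genes above background on all arrays. That filter keeps Esam, Slamf1, Angpt1 and Ctnnal1, so Emcn, Robo4 and Procr are left out of its counts. For the double mutant lower than WT (2), 1.5-fold gave 5, 3-fold 1 and the all-array filter 1. For the double mutant higher than JAK2V617F (2), 3-fold gave 1 and the all-array filter 0. For the double mutant over Ezh2Δ/Δ, lower (2) became 4 at 1.5-fold, 1 at 3-fold and 0 with that filter, and higher (1) became 2 at 1.5-fold. For Ezh2Δ/Δ over WT, lower (1) became 0 at 3-fold and with normexp, and higher (0) became 1 at 1.5-fold.

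Between single MEP arrays, double mutant lower than WT (2) became 0 at 3-fold, and higher (0) became 1 at 1.5-fold and with the mean over probes. JAK2V617F lower than WT (1) became 2 at 1.5-fold and with the mean over probes, and 0 at 3-fold and with normexp. Ezh2Δ/Δ lower than WT (0) became 1 with the mean over probes. Double mutant lower than JAK2V617F (1) became 2 at 1.5-fold and 0 at 3-fold, with normexp and with quantile normalization. Double mutant lower than Ezh2Δ/Δ (2) became 1 at 3-fold, with normexp and with quantile normalization.

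Over all genes, JAK2V617F in LSK called 21, against 226 with normexp, 187 among genes above background on all arrays, 10 with quantile normalization and 0 with no filter or a common floor. Quantile normalization moved the median of all genes in MEP minus LSK to 0.01, against 0.12. Dim signal limits Emcn and Fgd5 in LSK, and Emcn, Robo4, Procr, Fgd5 and Ly6a in MEP.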
